A study of Arabidopsis thaliana with 12 samples.

Results

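AT3G06200 encodes the guanylate kinase of the organelles of Arabidopsis thaliana, and its transcript was followed here through 1 array spot across 12 samples. The spot was selected on its annotation, to AT3G06200 alone, and chosen by its intensities in these same 12 samples, which were higher in the tpt1 mutant than in wild type (WT). It is 1 of 692 spots with a single gene among 3439 spots on the array. Total RNA was measured from 6 samples of WT, numbered 1 to 6, and 6 samples of tpt1, numbered the same way, all of ecotype Wassilevskija. Per the labels, tpt1 plants keep less than 5% of the triose phosphate transport of their chloroplasts. The labels state no age, treatment or tissue, no molecular nature of the tpt1 lesion, nor whether separate plants were sampled within a group, so p-values may measure technical spread only.

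Guanylate kinase transfers a phosphate group from ATP to GMP. The GDP that it forms is turned into GTP, which is needed for RNA synthesis and by translation factors. Plants have guanylate kinases in the cytosol and a separate one in the organelles, and in rice, loss of the organellar enzyme gives young leaves that are poor in chlorophyll. The triose phosphate/phosphate translocator of the chloroplast envelope exports fixed carbon in exchange for phosphate.

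The whole array set the frame for reading a single spot. Array medians on the log2 scale lay between -2.38 and -1.72 in WT and between -1.42 and -0.88 in tpt1. Spots listed at 0 numbered 490 to 603 in a WT sample and 385 to 476 in a tpt1 sample. Such zeros were left out before the medians and the normalization, and how their unlike number bears on the changes was not tested. Because the medians differed, values were quantile normalized, which gives all arrays the same distribution, and changes are relative to the rest of the array. Of 2849 spots tested, 182 passed as higher and 182 as lower (limma, adjusted p under 0.05), that is 50% higher. On the deposited scale 94.8% of the calls were higher, and with each array centred on its median 27.2% were. The median of all tested spots differed between genotypes by 0.08 after quantile normalization and by 0.86 on the deposited scale. No spot of its own was available for the translocator gene, so the label tpt1 could not be checked against it.

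AT3G06200 was among the brighter spots and was higher in tpt1 in every numbered pair. The deposited intensities, on a linear scale from 0 to 100, were 6.39, 5.82, 5.64, 4.68, 1.44 and 1.29 in WT 1 to WT 6. In tpt1 1 to tpt1 6 they were 16.6, 16.1, 9.50, 9.87, 4.64 and 4.26. The samples numbered 5 and 6 were the dimmest of both genotypes, and the groups overlapped because tpt1 5 and tpt1 6 lay below WT 1 to WT 4. None of the 12 readings was at 0 or near the ceiling of the scale.

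The group means of the deposited intensity were 4.21 ± 2.27 in WT and 10.2 ± 5.35 in tpt1 (SD, n = 6 each). Within a number, the ratio of tpt1 to WT was 2.60, 2.77, 1.68, 2.11, 3.23 and 3.30 for numbers 1 to 6. The ratio was smallest in numbers 3 and 4 and largest in numbers 5 and 6, where the intensities themselves were lowest. RNA from whole samples was measured, so more RNA per cell and more cells of a type that holds this transcript cannot be told apart.

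After quantile normalization the log2 levels of AT3G06200 were 2.40, 2.36, 2.32, 2.05, 0.86 and 0.72 in WT 1 to WT 6. The corresponding levels in tpt1 1 to tpt1 6 were 3.99, 3.92, 3.28, 3.37, 2.49 and 2.33. From the highest down, tpt1 1 to tpt1 4 came first, tpt1 5 lay just above WT 1 and WT 2, tpt1 6 lay between WT 2 and WT 3, and WT 5 and WT 6 stood at the foot. The mean was 1.78 ± 0.78 in WT and 3.23 ± 0.70 in tpt1 (SD, n = 6 each).

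The log2 difference of tpt1 minus WT within numbers 1 to 6 was 1.60, 1.56, 0.97, 1.31, 1.63 and 1.60. Its mean was 1.45 ± 0.26 (SD of 6 differences), which is 2.72-fold, and the moderated standard error of the unpaired fit was 0.38. The difference between genotypes was smaller than the range across numbers within WT, which was 1.67 on the same scale. Since the spot was picked for this difference, it is given as a description and carries no p-value. For orientation, 8.77% of the 570 tested spots with 1 gene and 6.39% of all tested spots passed as higher in tpt1, and nothing about AT3G06200 is read from those shares.

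**Figure D1:**
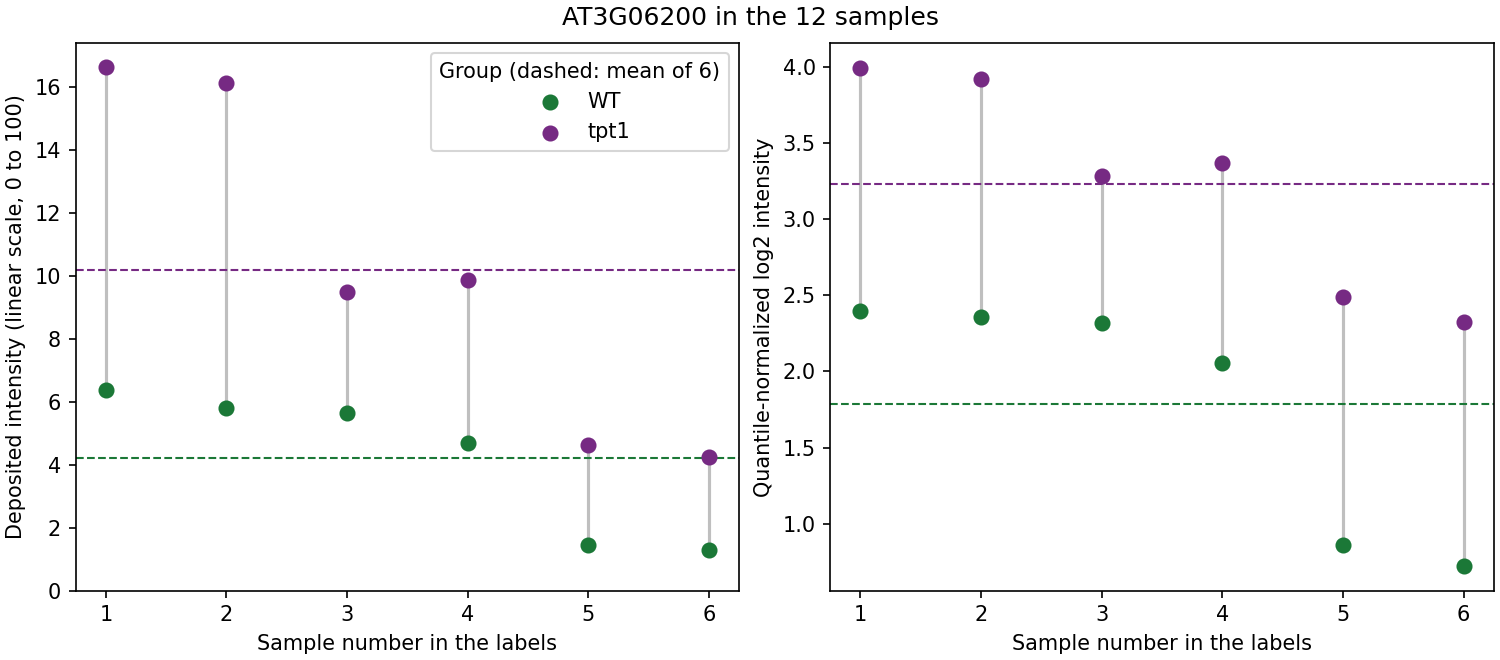
AT3G06200 by sample number, with the deposited intensity on the left and the quantile-normalized log2 intensity on the right. Each point is 1 sample, grey lines join samples with the same number and dashed lines are the means of 6; tpt1 lies above WT in all 6 numbers, and numbers 5 and 6 are the lowest in both genotypes.

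The rank of the spot within its own array does not depend on the scaling. Counted from the brightest of 3439 spots, AT3G06200 stood at rank 72, 74, 73, 83, 186 and 210 in WT 1 to WT 6. In tpt1 1 to tpt1 6 it stood at rank 32, 33, 42, 40, 71 and 78. It was thus nearer to the brightest spot in tpt1 in all 6 numbers, and tpt1 6 alone fell among the WT ranks. As a share of the summed intensity of the array, the spot held 0.129% ± 0.0625 in WT and 0.304% ± 0.139 in tpt1 (SD, n = 6 each).

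The size of the difference depended on how the arrays were brought to one scale. On the deposited scale it was 1.35 ± 0.37, and after division by the summed intensity 1.31 ± 0.37 (SD of 6 differences), with all 6 numbers above 0 on both. With each array centred on its median it was 0.49 ± 0.32, with 5 of 6 numbers above 0 and number 3 at -0.05. Among the 100 brightest tested spots, to which AT3G06200 belongs, the median change was -1.20 with median centring, -0.33 on the deposited scale and 0.00 after quantile normalization. AT3G06200 lay above the median of those bright spots by 1.68, 1.68 and 1.45, in that order. On the quantile-normalized scale 3 of the 100 had a change at least as high, itself included. How scaling before deposit bears on the value was not tested.

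**Figure D2:**
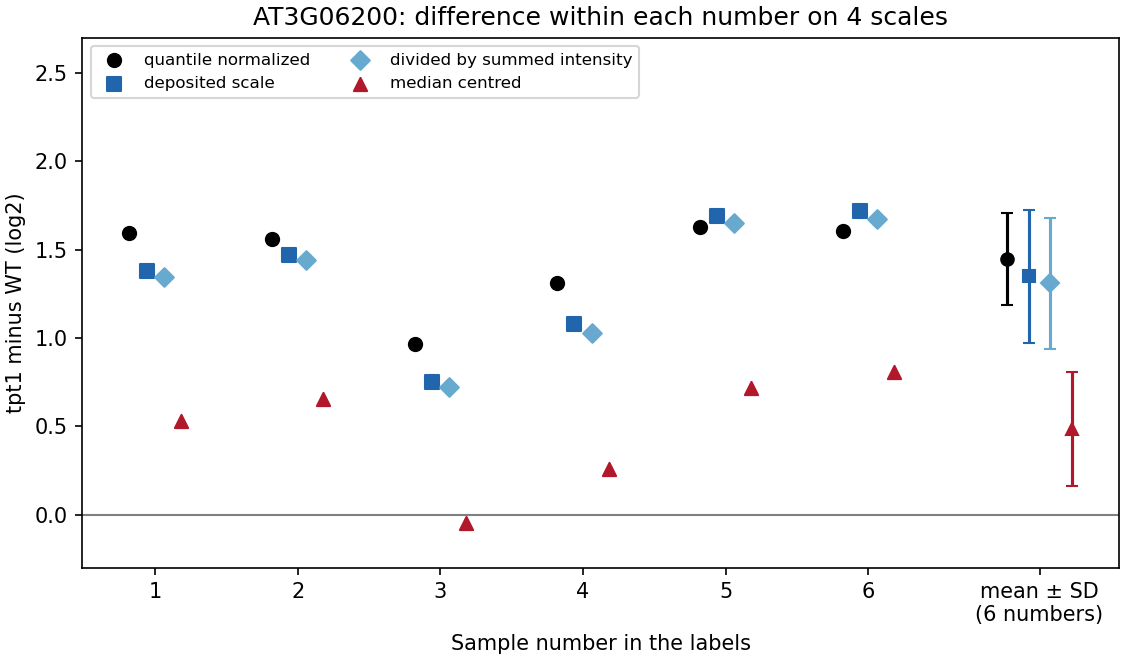
Log2 difference of tpt1 minus WT for AT3G06200 within each sample number on 4 scales, with the mean and SD of the 6 differences at the right. The 3 scales without median centring lie between 0.72 and 1.72, while median centring gives -0.05 to 0.81.

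By mean level AT3G06200 was the 69th of the 2849 tested spots and the 13th of the 570 with a single gene. By WT level alone it was the 95th, and by tpt1 level the 41st. By the size of the tpt1 minus WT difference, for which it was chosen, it was the 66th of all tested spots. When the tested spots were divided into 4 equal classes by mean level, a difference at least as high was found at 31 of 712 spots in the dimmest class, at 9 and 12 of 712 in the middle classes, and at 14 of 713 in the brightest, itself included.

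**Figure D3:**
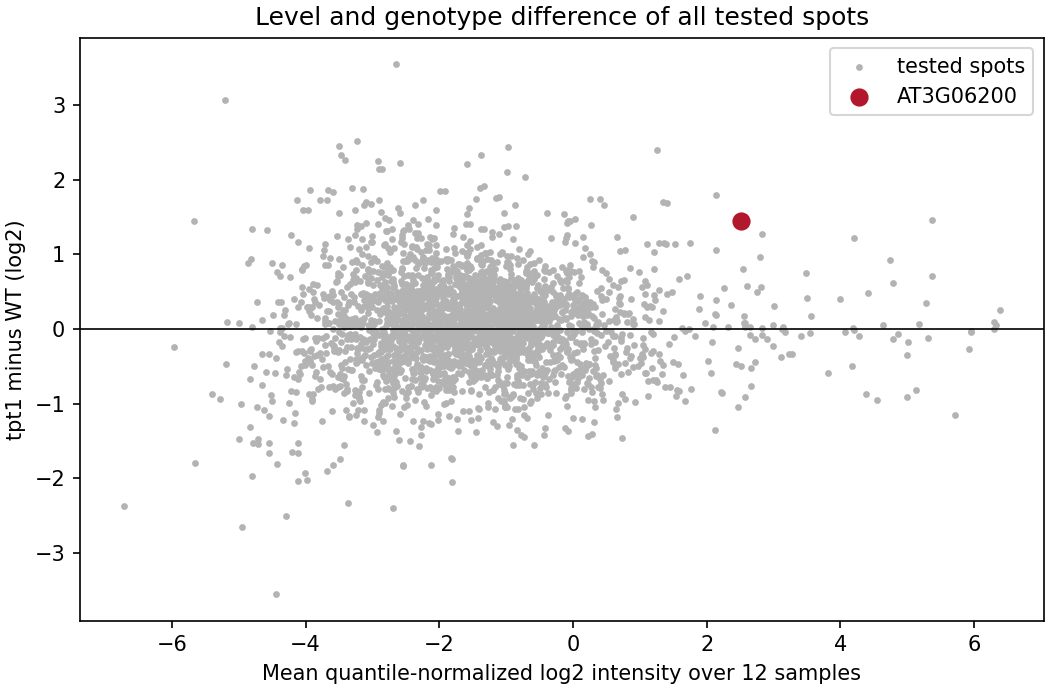
Mean quantile-normalized log2 intensity over 12 samples against the log2 difference of tpt1 minus WT, with 1 grey point for each of the 2849 tested spots. AT3G06200, in red at a difference of 1.45, for which it was chosen, lies in the sparse bright part of the plot. Of the 100 brightest spots, 3 reach that difference, itself included.

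The level of AT3G06200 also differed between sample numbers. That was known of this spot from the same values when it was chosen, so it is described here with no p-value. Of the sum of squares of its 12 levels, 53.3% lay between genotypes, 45.2% between numbers and 1.45% in the residual. Differences between numbers were common on the array: in a fit with genotype and number as terms, 40.3% of the 2383 spots with values in all samples passed (limma moderated F test), and nothing about AT3G06200 is read from that share.

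The order of the numbers was 1, 2, 3, 4, 5 and 6, from a mean log2 level of 3.20 down to 1.53 over both genotypes. The steps down between successive numbers were 0.06, 0.34, 0.09, 1.04 and 0.15, so the step from number 4 to number 5 was the widest of the 5. The unadjusted 95% intervals of the other steps included 0, and intervals were computed for successive numbers only. Since the difference between numbers was known when the spot was chosen, neither the order nor any step is concluded from them. Within WT, successive numbers differed in size by 0.04, 0.04, 0.26, 1.19 and 0.14, and within tpt1 by 0.07, 0.64, 0.08, 0.88 and 0.16. All were steps down except that tpt1 4 lay above tpt1 3. WT 1 to WT 4 thus lay close together, while in tpt1 the samples fell into pairs of neighbours. Numbers 1 and 2, 3 and 4, and 5 and 6 are taken below as 3 sets, which were noticed in earlier results of these data and are not in the labels. Across spots, after subtraction of the group means, the 2 samples of a set within a genotype correlated at -0.06 to 0.75. The p-values here count 6 samples a genotype as independent, and would be too small if samples of a set share a source.

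From numbers 1 and 2 to numbers 5 and 6, the level of AT3G06200 was lower by a similar amount in both genotypes. The quantile-normalized difference was -1.59 in WT and -1.55 in tpt1. On the deposited scale it was -2.16 and -1.88, while the array medians moved by -0.63 and -0.52. Across the 2383 spots with values in all samples, the median shift after quantile normalization was 0.05 in WT and 0.05 in tpt1. A difference at least as far below 0 in both genotypes was found at 46 other spots. What a number marks is not stated in the labels.

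Whether the genotype difference itself varied between the 3 sets was tested. The difference of tpt1 minus WT was 1.58 in numbers 1 and 2, 1.14 in numbers 3 and 4, and 1.62 in numbers 5 and 6. This variation did not pass after quantile normalization (limma interaction F test, adjusted p = 0.119), where 6.67% of spots passed. In the same test it passed on the deposited scale (adjusted p = 0.0213, where 6.38% of spots passed). It also passed after division by the summed intensity (adjusted p = 0.0252, where 6.29% of spots passed). It did not pass with median centring (adjusted p = 0.060) or with a prior without trend (adjusted p = 0.303). The sets were noticed in these same data, and the differences are those for which the spot was chosen. Nothing is therefore concluded from these p-values. On the deposited scale the differences were 1.43, 0.92 and 1.71 for the 3 sets. After quantile normalization, the difference in numbers 3 and 4 minus that in numbers 1 and 2 was -0.44 (unadjusted 95% interval -0.75 to -0.12). Numbers 5 and 6 differed from numbers 1 and 2 by 0.04 (-0.28 to 0.35).

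Other genes of GTP and purine metabolism were sparse on the array. A list of 64 further loci was drawn up from general knowledge: the cytosolic guanylate kinases GK-1 and AGK2, purine synthesis and salvage, other nucleotide kinases, guanosine tetraphosphate enzymes, plastid RNA polymerases with their sigma factors, and the translocator. Of these, 3 had a spot of their own, all from the 21 loci of purine synthesis, and the other lists had none. So AT3G06200 could not be set against GK-1 or AGK2. In the unpaired limma fit, 0 of the 3 genes passed as higher and 0 as lower in tpt1 (0 at an unadjusted p under 0.05). In that fit 12.8% of all tested spots passed in either direction. With the sample number as a block, AT2G44530 passed as lower, as given below.

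AT2G44530, listed as a phosphoribosyl pyrophosphate synthetase, had log2 levels of -2.29, -1.99, -1.56, -1.66, -0.81 and -0.53 in WT 1 to WT 6. In tpt1 1 to tpt1 6 they were -2.50, -2.45, -2.14, -2.13, -1.06 and -1.25. Here the samples numbered 5 and 6 were the highest of each genotype, where those of AT3G06200 were the lowest. For AT2G44530 the difference between numbers passed (limma F test, adjusted p = 0.00217), in a fit in which 40.3% of the 2383 spots passed. The difference of tpt1 minus WT was -0.45 (SE 0.35, limma adjusted p = 0.47), below 0 in 6 of 6 numbers. With the sample number as a block it passed as lower (adjusted p = 0.0313), in a fit in which 31.8% of all tested spots passed, but on the deposited scale its sign turned, at 0.44 (adjusted p = 0.148).

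AT2G35390, listed as a further phosphoribosyl pyrophosphate synthetase, was at -1.40 ± 0.39 in WT and -1.77 ± 0.34 in tpt1 (SD, n = 6 each). Its log2 difference was -0.37 (SE 0.23, limma adjusted p = 0.325, and 0.071 with the number as a block), below 0 in 6 of 6 numbers, and 0.50 on the deposited scale. The difference between numbers did not pass for it (adjusted p = 0.066). AT1G31220, listed as the glycinamide ribonucleotide formyltransferase of purine synthesis, was at -1.57 ± 0.69 in 5 WT samples, WT 6 being listed at 0 and left out of the fit, and at -1.42 ± 0.53 in 6 tpt1 samples. Its log2 difference was 0.16 (SE 0.34, limma adjusted p = 0.817) and 0.93 on the deposited scale (adjusted p = 0.0233). On that scale 1396 of the 2849 tested spots passed, 1323 of them as higher, and the median difference of all tested spots was 0.86. Nothing about AT1G31220 is read from its pass there.

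Genes whose profile lay nearest to that of AT3G06200 were taken from the 477 other spots with 1 gene and values in all samples. Nearness was the root mean square difference of log2 levels over the 12 samples, after each spot was centred on its own mean. The nearest were AT1G76450 at 0.324, AT4G22650 at 0.359, AT5G38310 at 0.416, AT3G44570 at 0.424 and AT1G06730 at 0.471, against a median of 1.06 over the 477. All of them were higher in tpt1 in every number, with mean differences of 1.06, 1.02, 1.05, 0.87 and 0.67, each smaller than that of AT3G06200. Because nearness counted the genotype difference, a rise in tpt1 follows from the choice and is no separate result. AT1G76450 was the most even of them, with differences of 0.97 to 1.15 over the 6 numbers. This choice depended on the scale, since 0 of the 5 were named again on the deposited scale and 0 with median centring.

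When each spot was instead centred on its mean in each genotype, the comparison used the pattern over numbers alone. A likeness of the genes in that pattern therefore follows from the choice. The nearest genes were then AILP1 (AT5G19140) at 0.153, AT5G50350 at 0.169, AT5G52960 at 0.200, AT5G49840 at 0.210 and AT5G19210 at 0.212, against a median of 0.763. A flat profile would lie at 0.676 from AT3G06200. From numbers 1 and 2 to numbers 5 and 6, the level of AILP1 differed by -1.62 in WT and -1.63 in tpt1, close to the values of AT3G06200, while its mean difference of tpt1 minus WT was 0.15. AT5G19210 had a similar pattern over numbers with a genotype difference of -1.04, opposite in sign to that of AT3G06200. AILP1, AT5G50350 and AT5G52960 were named again on the deposited scale and with median centring.

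**Figure D4:**
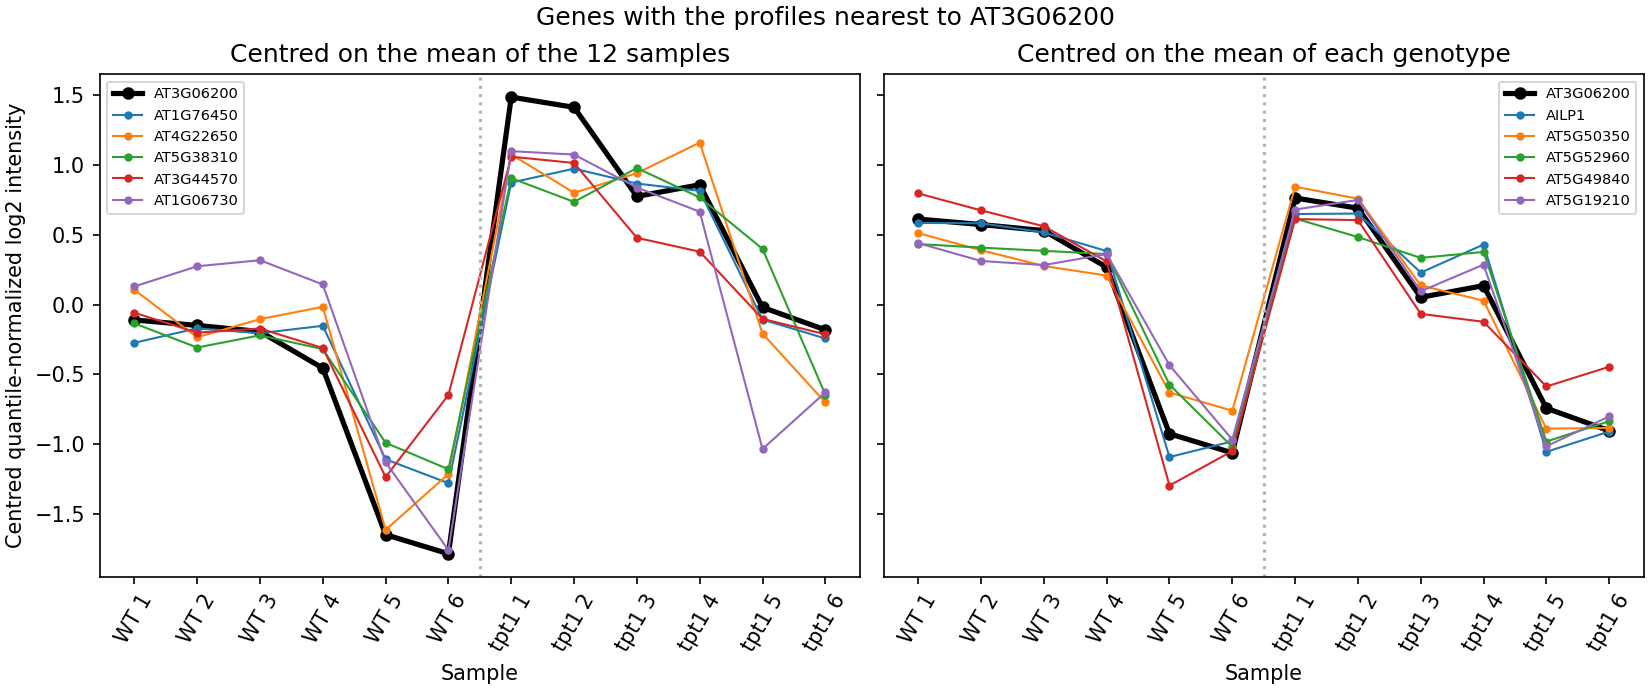
Centred log2 levels of AT3G06200 (black) and of the 5 nearest genes by each measure, over the 12 samples. On the left the profiles keep the genotype difference, which is above 0 for all 6 genes. On the right it is removed, and all 6 genes are lowest in samples 5 and 6 of both genotypes. Both traits follow from choosing genes by nearness.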

How the data were processed

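The authors deposited spot intensities on a linear scale from 0 to 100 for 12 array samples; background correction, scaling, labelling and probe sequences are not given in the sources used here, so it stays unknown how values were centred and whether a 0 is a true absence. Number of arrays limits the precision. Groups and numbers came from the sample titles, and 0 pairs of samples held identical values.

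Zeros were set as missing, log2 values were quantile normalized, and spots with at least 4 values above 0 in each group were tested with limma 3.58.1 in R 4.3.3 (lmFit, eBayes with a trend, Benjamini-Hochberg over all tested spots, threshold 0.05). Fits between numbers and between sets used spots above 0 in all samples; the planned test of AT3G06200 between numbers is not given, since that difference was known when the spot was chosen. Fits were tested on simulated data. Figures were drawn with matplotlib 3.10.9. Genes were named from the platform annotation through a reference table of assembly TAIR10.1 (690 of 692 spots matched); no coordinates are given, since the build of the array is not stated.

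Samples with the same number correlated at 0.47 to 0.61 across spots after subtraction of group means, and for 12 of 12 the highest correlation with a sample of the other genotype was with its namesake, so numbers were taken as pairs. The unpaired fit, which leaves this pairing out, is the main one and the block an alternative. The unpaired fit called 12.8% of tested spots and the block 31.8%. Alternatives were other scalings, a pseudocount of 0.1, a stricter filter, a prior without trend, and samples left out. Named genes are AT3G06200, list genes with a spot of their own, and the 5 nearest profiles by each of 2 measures. AT3G06200, the lists and the sets were chosen with earlier results of these data known.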

Additional observations from a re-analysis of the deposited data

Results flagged for a closer look

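Among 29 groups of values examined for a sample that stands apart from the rest, 1 held such a sample, where chance gives about 5% of groups. AT5G38310, one of the genes nearest in profile to AT3G06200, was at a log2 level of 0.057 in tpt1 6, while the remaining 5 samples of that genotype lay between 1.10 and 1.68. The values of AT3G06200 held no such sample in WT, in tpt1 or among its 6 differences.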

How the results depend on the processing

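The log2 difference of AT3G06200 stayed above 0 under every alternative run, which is no separate support, since the spot was chosen for it. It was 1.45 with the sample number as a block, 1.22 to 1.66 with 1 sample left out, 1.42 to 1.52 without both samples of a number, 1.38, 1.54 and 1.40 without numbers 1 and 2, 3 and 4, or 5 and 6, and moved beyond the spread of the 6 differences with median centring alone (0.49). In the limma interaction F test, the variation between sets came to pass on the deposited scale (adjusted p = 0.0213, where 6.38% of spots passed). It also did after division by the summed intensity (adjusted p = 0.0252, where 6.29% of spots passed). It did not pass with median centring (adjusted p = 0.060), with the pseudocount (0.147) or with a prior without trend (0.303). Nor did it pass without any 1 number (adjusted p = 0.0814 to 0.489). As above, nothing is concluded from these p-values, because the sets were noticed in these same data and the spot was chosen for these differences. The count of called spots, 364, was 906 with the block, 1396 on the deposited scale, 1471 after division by the summed intensity, 272 to 338 with 1 sample left out and 216 to 258 without a number; the cause was not tested. Signs turned for AT2G35390 (0.50 deposited, 0.46 by summed intensity), AT2G44530 (0.44 and 0.41) and, without WT 2, AT1G31220 (-0.020, against 0.00198 to 0.35 without any other 1 sample). The block changed 1 call of a named list gene, AT2G44530. The division by summed intensity and the sets left out were chosen after seeing the data. Brightness over background could not be judged from the deposited values.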
